A study of Mus musculus with 12 samples.

Results

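The 38 genes described here encode general neuronal proteins of the cytoskeleton and growth cone, the synapse, the secretory granule, RNA binding, neuronal transcription, adhesion and the membrane. They were listed by name, and each was represented by the probe set (the group of array oligonucleotides for a transcript) with the highest mean over all 12 arrays among those assigned to that gene alone. All 38 of 38 listed genes were measured, among 17097 genes in all. They comprised 12 genes of the cytoskeleton and growth cone, 9 of the synaptic vesicle and synapse, 3 of the secretory granule, 5 RNA-binding genes, 3 zinc finger transcription factors, 3 adhesion genes and 3 genes of the membrane and signalling.

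Expression arrays had been run on embryonic mouse brain in 4 groups of 3. In the YAP experiment, forebrain with midbrain at E11.5 from TetO-YAP1;Nes-rtTA embryos was compared with the same tissue from Nes-rtTA embryos. The transgene encodes YAP1 with the S127A change, is switched on by doxycycline through a transactivator under the Nestin promoter of neural progenitors, and doxycycline was in the dam's food at 200 mg/kg from E7.5. In the Nf2 experiment, dorsal telencephalon at E13.5 from Nf2F/F;Emx1-Cre embryos (knockout) was compared with that from Nf2F/+;Emx1-Cre embryos, which also carried the Cre and in which 1 floxed copy could be deleted. All groups were of mixed genetic background.

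YAP is a transcriptional co-activator that binds DNA through TEAD proteins, and Nf2 encodes Merlin, an upstream component of the Hippo pathway that restrains YAP. In the embryonic brain, progenitors lining the ventricle divide and give rise to postmitotic neurons, which switch on neuronal tubulins, microtubule regulators and neurofilament proteins as neurites grow. Genes of the synaptic vesicle and of regulated secretion are switched on in the same cells, before most synapses have formed. Many neuronal genes carry sites for REST, a repressor that keeps neuronal genes low outside neurons.

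The values were deposited log2 intensities, so a difference of 1 is 2-fold. Levels were not compared between probe sets or between the experiments, whose arrays had medians of 5.03 to 5.10 (YAP) and 4.30 to 4.42 (Nf2). A gene was called higher or lower at an adjusted p under 0.05 in limma's linear model over the 12 arrays, with Benjamini-Hochberg adjustment over all 17097 genes. Standard errors (SE) below are from that fit, with 3 arrays against 3. The fit takes 1 spread per gene from all 12 arrays, so a gene has the same SE in both experiments. An SE is thus not the spread of that experiment's own arrays. The median standard deviation of a listed gene was 0.15 in YAP controls and 0.28 with YAP overexpression. It was 0.14 in Nf2 controls and 0.15 in knockouts. A fit to the YAP arrays alone, which called fewer genes, is given below. The YAP targets Ccn1 and Ccn2 were called higher in both experiments, whereas the array's probe set for Yap1 (log2 change 0.27, adjusted p = 0.0551) with YAP and that for Nf2 (-0.38, adjusted p = 0.246) with the knockout were not called. The labels do not say that the 3 arrays of a group came from separate embryos, so p-values refer to the spread between these arrays, and that spread may be technical.

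With YAP overexpression, 22 of the 38 neuronal genes fell and none rose, against 3.64% of all genes called lower and 2.67% called higher. The list was chosen with earlier results of these data known, so the comparison with all genes is a description and not a test. Of 69 other neuronal genes of the same kinds, described below, 18.8% were called lower. The median log2 change of the 38 was -0.62, against -0.01 over all genes, with a range of -1.56 to 0.47. Changes were below 0 for 35 of the 38 genes, against 51.2% of all genes. For 31 of the 38 genes control and overexpression arrays were fully separate, which held for 21.3% of all genes. In 30 of these all 3 overexpression arrays lay below all 3 controls, and in 1, Stmn4, all 3 lay above. At an unadjusted p under 0.05 limma gave 31 genes lower and 1 higher, against 11% and 8.65% of all genes. In a whole tissue, fewer neurons and less RNA per neuron cannot be told apart.

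**Figure D1:**
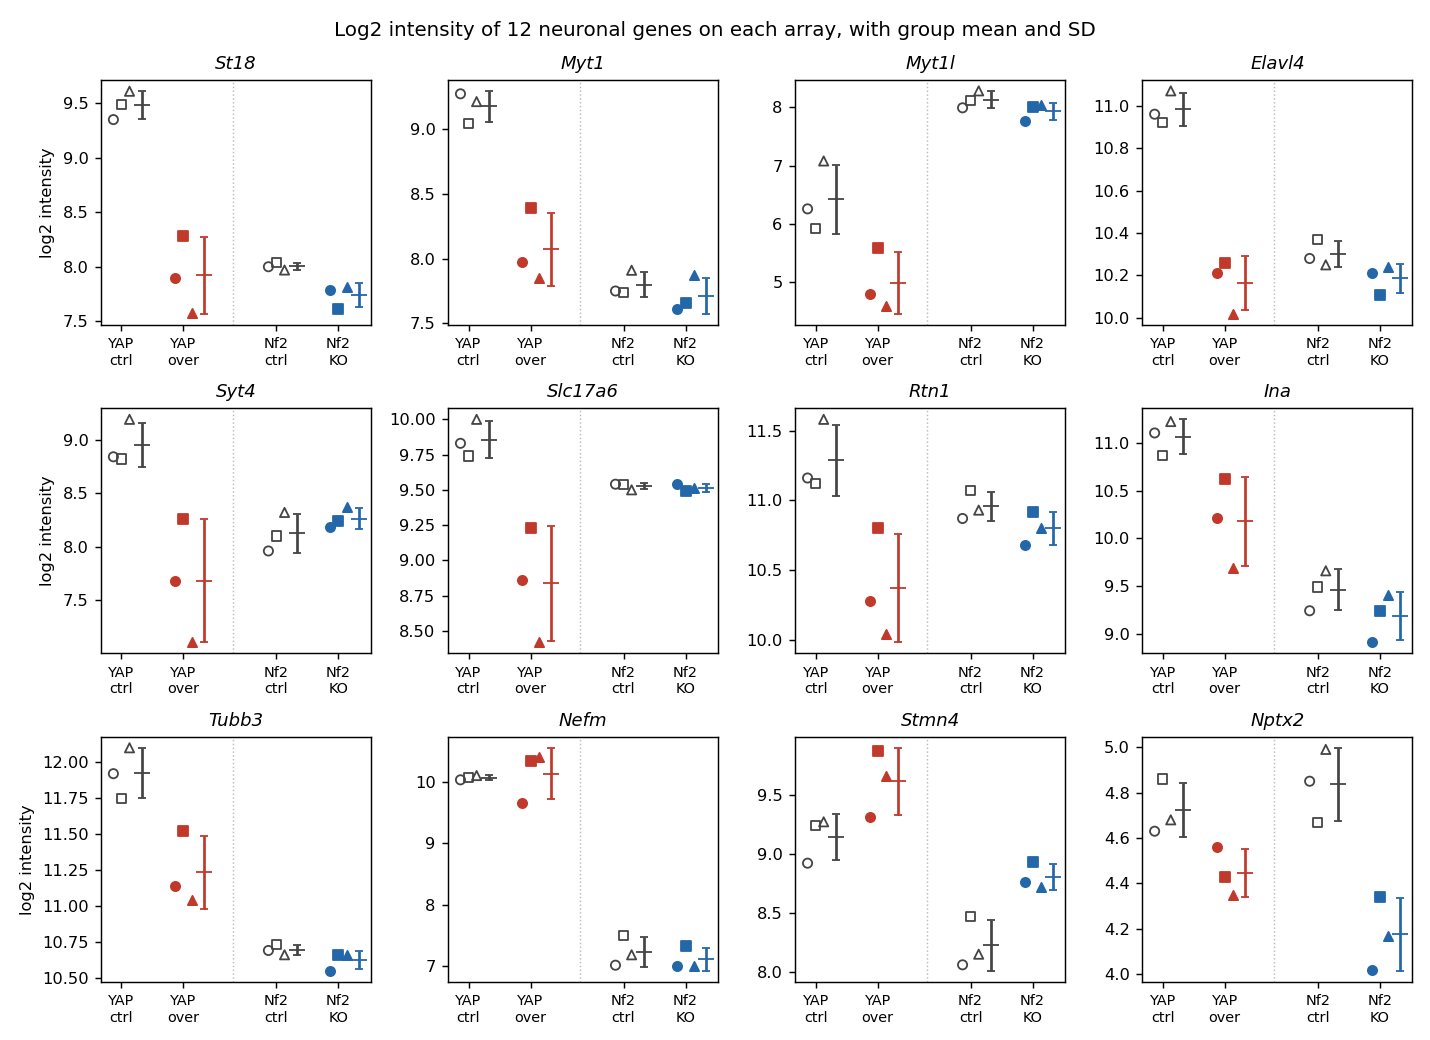
Log2 intensity on each array for 12 of the neuronal genes, in the YAP experiment (left of the dotted line) and the Nf2 experiment (right), with circles, squares and triangles for arrays 1, 2 and 3. The cross lines give the group mean and SD, and axes differ by gene. St18, Myt1, Elavl4 and Slc17a6 have every YAP overexpression array below every control, Stmn4 has every one above, and Nptx2 is lower in the Nf2 knockout.

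The zinc finger transcription factors Myt1, Myt1l and St18, which form one family and are switched on in young neurons, all fell, with a median log2 change of -1.43, the lowest median of the 7 functional groups. St18 read 9.35, 9.49 and 9.61 on the control arrays and 7.90, 8.28 and 7.58 on the overexpression arrays. The groups lay more than 1 log2 unit apart with no overlap, and the change of -1.56 (SE 0.14, 2.96-fold lower, limma adjusted p = 7.36e-05) was the largest of the 38. Myt1 read 9.27, 9.04 and 9.21 in controls and 7.97, 8.39 and 7.85 with YAP. It fell by 1.1 (SE 0.13, 2.15-fold, limma adjusted p = 0.000474), with every overexpression array below every control. Myt1l, a factor that represses non-neuronal genes, read 6.26, 5.93 and 7.08 in controls and 4.80, 5.59 and 4.59 with YAP. It fell by 1.43 (SE 0.28, 2.69-fold, limma adjusted p = 0.0103), the arrays did not overlap, and its overexpression mean of 4.99 lay below the array medians, in the range of dim probe sets. Its 4 probe sets had changes of -1.43, -0.72, -0.68 and 0.10, their mean gave -0.68 (limma adjusted p = 0.0107), and with the replicate number as a block the adjusted p was 0.051.

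Among the RNA-binding genes, 4 of 5 fell, with a median log2 change of -0.65. Elavl2, Elavl3 and Elavl4 encode the neuronal Hu proteins, which stabilise and regulate the splicing of neuronal mRNAs. Elavl4 read 10.96, 10.92 and 11.07 in controls and 10.21, 10.26 and 10.02 with YAP. The groups were tight and separate, and the gene fell by 0.82 (SE 0.08, 1.77-fold, limma adjusted p = 0.000133). Elavl2 read 10.95, 10.91 and 11.11 in controls against 10.30, 10.50 and 10.29. It fell by 0.63 (SE 0.08, 1.54-fold, limma adjusted p = 0.000941), again with no overlap. Elavl3 read 9.92, 9.56 and 10.06 in controls against 9.24, 9.43 and 8.91, and fell by 0.65 (SE 0.15, limma adjusted p = 0.0232). Its control array 2 lay only just above overexpression array 2. Celf4, a CELF family regulator of splicing and mRNA stability, read 9.68, 9.53 and 9.81 against 8.90, 9.31 and 8.26. It fell by 0.85 (SE 0.20, limma adjusted p = 0.0239), with overexpression arrays spread over more than 1 log2 unit. Celf3 had a change of -0.30 (limma adjusted p = 0.164), and its arrays did not overlap either.

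Of the 12 cytoskeletal and growth cone genes, 6 fell, Tubb3, Map2, Stmn2, Stmn3, Ina and Dpysl3, and the group's median log2 change was -0.55. Tubb3, the neuron-specific beta-tubulin, read 11.92, 11.75 and 12.10 in controls and 11.14, 11.52 and 11.04 with YAP. It fell by 0.69 (SE 0.12, 1.61-fold, limma adjusted p = 0.00541), and the arrays did not overlap. Ina, which encodes the neurofilament protein alpha-internexin, read 11.11, 10.87 and 11.23 against 10.22, 10.63 and 9.69. It fell by 0.89 (SE 0.21, 1.85-fold, limma adjusted p = 0.0255), the largest change of the group, with overexpression array 3 the lowest. Dpysl3, a collapsin response mediator of growth cone guidance, read 11.61, 11.40 and 11.88 against 10.97, 11.33 and 10.63, and fell by 0.65 (SE 0.16, limma adjusted p = 0.0282). Stmn2 and Stmn3, stathmins that bind tubulin dimers and destabilise microtubules, fell by 0.59 (SE 0.14, limma adjusted p = 0.0289) and 0.55 (SE 0.13, limma adjusted p = 0.025). Map2, a microtubule-associated protein of dendrites, fell by 0.55 (SE 0.14, limma adjusted p = 0.0371).

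The other 6 genes of the group were not called. The stathmin Stmn4 went the other way from Stmn2 and Stmn3. It read 8.92, 9.24 and 9.27 in controls and 9.31, 9.87 and 9.66 with YAP, a change of 0.47 (SE 0.15, limma adjusted p = 0.093). All 3 overexpression arrays lay above the controls, the only member of which this held. Mapt, which encodes the axonal protein tau, read 8.65, 8.62 and 9.19 against 8.07, 8.56 and 7.65, a change of -0.73 (SE 0.21, limma adjusted p = 0.0644). Crmp1, a relative of Dpysl3, had a change of -0.43 (limma adjusted p = 0.0597). In both, every overexpression array lay below the controls. Gap43, a growth cone protein, had a change of -0.38 (limma adjusted p = 0.127) with overlapping arrays.

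The neurofilament subunit genes differed among themselves in value. Next to Ina, the light chain gene Nefl had a change of -0.19 (SE 0.13, limma adjusted p = 0.492). The medium chain gene Nefm read 10.04, 10.08 and 10.11 in controls and 9.66, 10.35 and 10.42 with YAP, a change of 0.07 (SE 0.18, limma adjusted p = 0.891). Its controls lay close together, and the overexpression arrays fell on both sides of them.

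Among the synaptic genes 4 of 9 fell, Syt4, Slc17a6, Snap25 and Vamp2, with a median log2 change of -0.54 for the 9. Syt4, a synaptotagmin of dense-core and other vesicles, read 8.84, 8.82 and 9.19 in controls and 7.68, 8.26 and 7.11 with YAP. It fell by 1.27 (SE 0.22, 2.41-fold, limma adjusted p = 0.00583) with a clear gap between the groups. Slc17a6 encodes the vesicular glutamate transporter VGLUT2, which loads glutamate into vesicles. It read 9.83, 9.74 and 10 against 8.86, 9.23 and 8.42, and fell by 1.02 (SE 0.15, 2.03-fold, limma adjusted p = 0.00215), with no overlap. Snap25, a SNARE protein of the plasma membrane, read 7.72, 7.70 and 8.27 against 7.02, 7.37 and 6.89. It fell by 0.80 (SE 0.16, 1.75-fold, limma adjusted p = 0.0105), with control array 3 well above the other arrays. Vamp2, the vesicle SNARE that pairs with Snap25, read 7.75, 7.79 and 7.85 against 7.14, 7.53 and 7.11, and fell by 0.54 (SE 0.10, limma adjusted p = 0.00783). With the mean of its 2 probe sets it was not called (-0.31, limma adjusted p = 0.091).

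The remaining synaptic genes were not called. Syt1, the calcium sensor of fast transmitter release, read 8.44, 8.25 and 8.94 in controls and 7.79, 8.21 and 7.05 with YAP. Its change of -0.86 (SE 0.25, limma adjusted p = 0.0612) was larger than that of Snap25, and its arrays were spread more widely. The vesicle proteins Syn1 (-0.40, limma adjusted p = 0.144), Syp (-0.25, limma adjusted p = 0.367) and Syn2 (-0.14, limma adjusted p = 0.746) had smaller changes. Nptx2, a secreted pentraxin that clusters glutamate receptors, had a change of -0.28 (limma adjusted p = 0.171). The probe sets used for Syn2, Nptx2 and Nkain2 had control means of 4.63, 4.72 and 4.32, below the array medians. Another of Syn2, with a control mean of 5.24, had a change of -0.02, and another of Nptx2, at 4.92, one of 0.19.

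Of the 3 secretory granule genes, Scg3 and Chgb, granins of the dense-core granule, fell. Scg3 read 9.97, 9.84 and 10.04 in controls against 9.46, 9.57 and 9.23, a fall of 0.53 (SE 0.12, limma adjusted p = 0.0212). Chgb read 8.09, 7.85 and 8.22 against 7.42, 7.65 and 7.03, a fall of 0.69 (SE 0.16, limma adjusted p = 0.0227). Neither gene's groups overlapped. The third granin, Scg2, read 6.08, 6.39 and 7 in controls and 6.97, 7.02 and 6.65 with YAP, a change of 0.39 (SE 0.23, limma adjusted p = 0.397) with overlapping groups.

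Among the adhesion and membrane genes, Ncam1, Cntn2 and Rtn1 fell. Cntn2, the axonal glycoprotein TAG-1 of the contactin family, read 6.27, 6.25 and 6.63 in controls and 5.32, 5.70 and 5.47 with YAP. It fell by 0.89 (SE 0.19, 1.85-fold, limma adjusted p = 0.0161), and no arrays overlapped. Ncam1, the neural cell adhesion molecule, read 10.88, 10.71 and 11.01 against 10.22, 10.61 and 9.90, a fall of 0.62 (SE 0.15, limma adjusted p = 0.0299). The mean of its 6 probe sets gave -0.26 and no call (limma adjusted p = 0.155). L1cam, another immunoglobulin adhesion protein of axons, had the same change of -0.62 with a wider error (SE 0.23, limma adjusted p = 0.158) and overlapping arrays. Rtn1, a reticulon of the neuronal endoplasmic reticulum, read 11.16, 11.12 and 11.58 against 10.28, 10.80 and 10.04. It fell by 0.91 (SE 0.17, 1.88-fold, limma adjusted p = 0.00885), with a gap between the groups. The G protein subunit gene Gng3 (-0.52, limma adjusted p = 0.111) and Nkain2 (-0.06, limma adjusted p = 0.736) were not called.

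The 38 genes also moved together from array to array inside a group. Their mean level was 8.93, 8.85 and 9.14 in control arrays 1 to 3 and 8.34, 8.66 and 8.14 in overexpression arrays 1 to 3. Control array 3 was the highest of the 6 for 30 of the 38 genes, against 21% of all genes. Overexpression array 3 was the lowest for 29 of them, against 20.8% of all genes. These ranks are over both groups, so the lower values with YAP enter them, and they do not describe a single group. Within its own group, the mean deviation of the members was 0.17 in control array 3 and -0.24 in overexpression array 3. The median deviation over all genes was 0.01 and -0.01. The median SD of a member was 0.15 among the controls and 0.28 among the overexpression arrays, against 0.11 and 0.12 over all genes. Members thus lay high or low together by array, and their median spread was above that of all genes. What sets it was not tested.

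**Figure D2:**
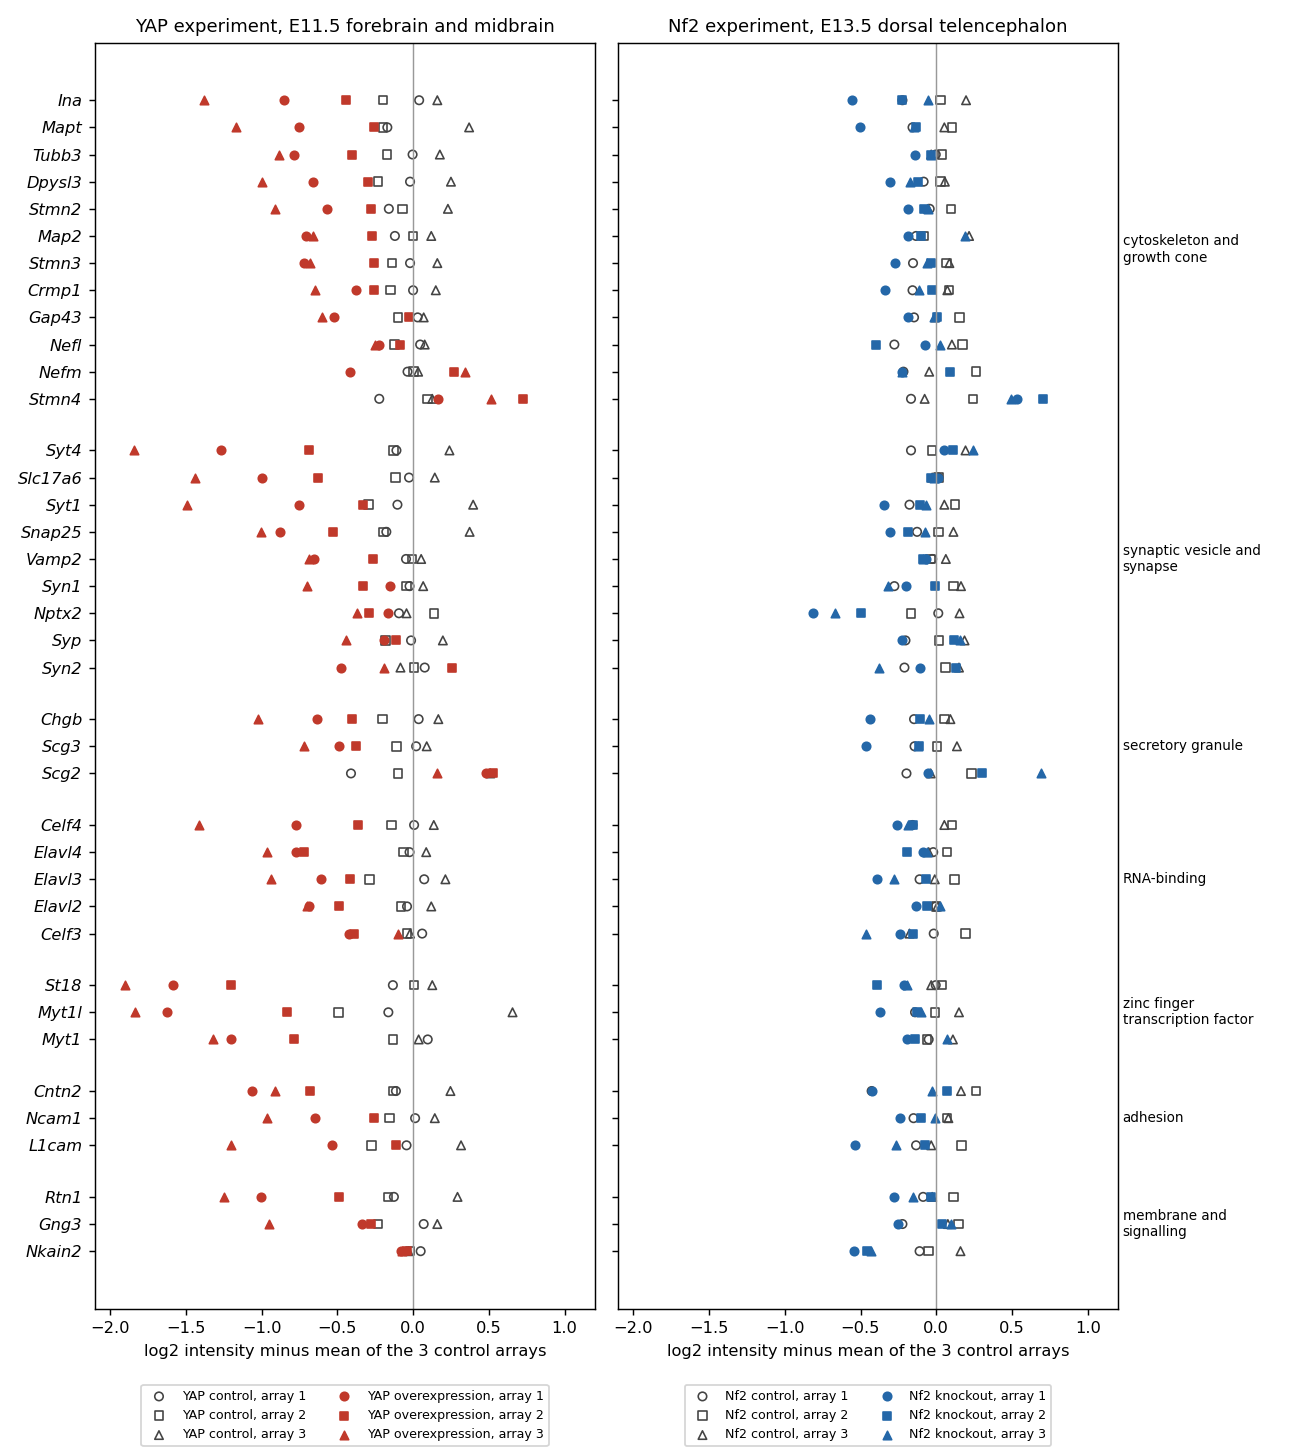
Log2 intensity of each of the 38 genes on each array minus the mean of the 3 control arrays, in the YAP experiment (left, red for overexpression) and the Nf2 experiment (right, blue for knockout), with symbols for arrays 1 to 3. Most red symbols lie left of the controls, with overexpression array 3 the lowest for 29 genes, and the blue symbols lie much nearer to the controls.

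The count of calls moved with single arrays. Without control array 3, 11 of the 38 genes were called lower, without overexpression array 3, 12, and without both, which was chosen after the data were seen, 6 (Syt4, Slc17a6, Elavl2, Elavl4, Myt1 and St18), with a median of -0.40. Leaving out control array 1 gave 13 and overexpression array 1 gave 11, with Stmn4 then called higher, while leaving out overexpression array 2 gave 27. Calls over all genes moved too, from 1078 as reported. They were 529 without control array 3, 678 without overexpression array 3 and 384 without both. Without control array 1 they were 674, without overexpression array 1, 688, and without overexpression array 2, 1241. With any 1 of the 6 YAP arrays left out, 11 members kept their call every time, namely Tubb3, Snap25, Syt4, Vamp2, Slc17a6, Elavl2, Elavl4, Myt1, Myt1l, St18 and Rtn1. The Nf2 arrays, which also enter the fit, were not left out for these calls. A fit to the 6 YAP arrays alone, with the spread taken from them only, called 6 of the 38 and 361 of all genes. In all 15 ways the data were handled, 5 members kept their call, Slc17a6, Elavl2, Elavl4, Myt1 and St18.

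**Figure D3:**
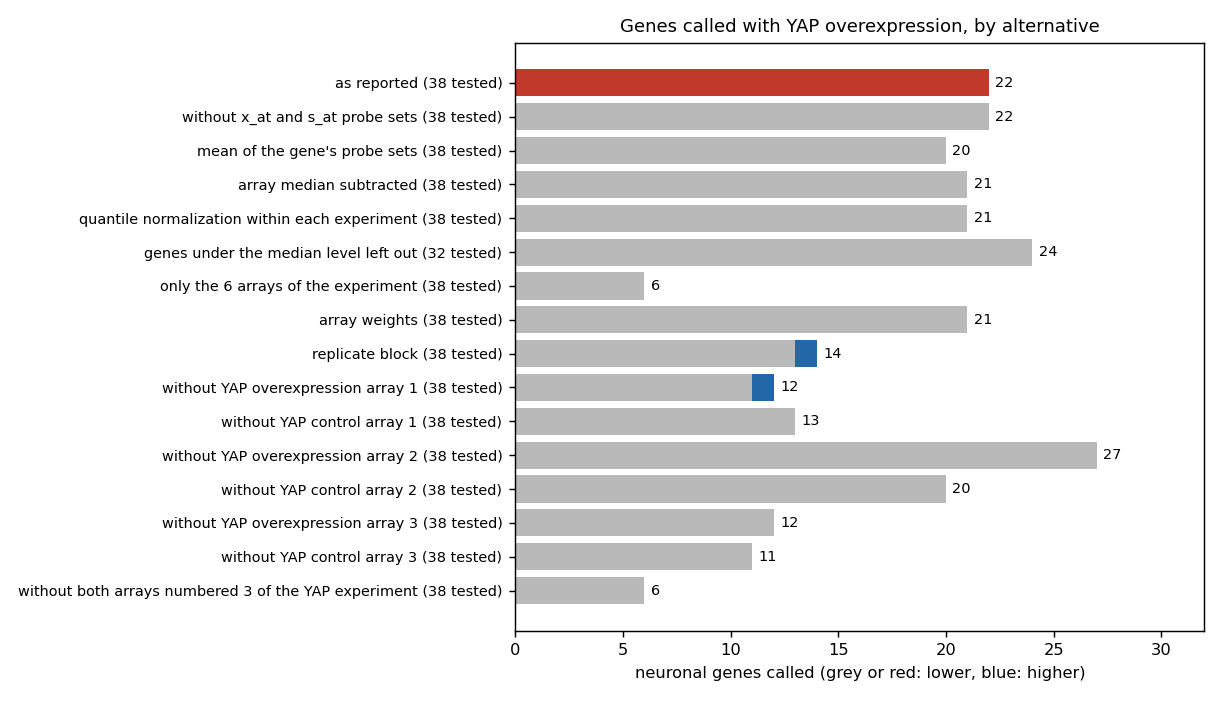
Number of the 38 neuronal genes called with YAP overexpression at an adjusted p under 0.05 for each way of handling the data, with genes called higher in blue. The count is 22 as reported and ranges from 6, with only the 6 YAP arrays or without both arrays numbered 3, to 27 without overexpression array 2. Calls over all genes in these fits were 1078, 361, 384 and 1241.

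Promoter windows of 300 bases, from 250 before to 50 after an annotated start, were at hand for 24 of the 38 genes (51 windows) in a RefSeq table of build GRCm38.p6. They are shown for the 3 Hu genes, Slc17a6 and Ina, which fell with YAP and hold an E-box. Elavl2, Elavl4 and Slc17a6 have 6, 4 and 2 windows, at different annotated starts. For these the window shown is the first with the most E-boxes, and positions refer to its own annotated start. E-boxes, the sites bound by proneural basic helix-loop-helix factors, were searched on both strands as CAGCTG and CAGATG and are in capitals.
Elavl2, chr4:91399935-91400234, minus strand: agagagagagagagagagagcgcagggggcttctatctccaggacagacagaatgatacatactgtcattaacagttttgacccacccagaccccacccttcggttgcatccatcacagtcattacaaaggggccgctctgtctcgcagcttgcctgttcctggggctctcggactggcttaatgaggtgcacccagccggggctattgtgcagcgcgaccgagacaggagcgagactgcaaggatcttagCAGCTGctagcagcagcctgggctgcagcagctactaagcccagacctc
Elavl3, chr9:22051974-22052273, minus strand: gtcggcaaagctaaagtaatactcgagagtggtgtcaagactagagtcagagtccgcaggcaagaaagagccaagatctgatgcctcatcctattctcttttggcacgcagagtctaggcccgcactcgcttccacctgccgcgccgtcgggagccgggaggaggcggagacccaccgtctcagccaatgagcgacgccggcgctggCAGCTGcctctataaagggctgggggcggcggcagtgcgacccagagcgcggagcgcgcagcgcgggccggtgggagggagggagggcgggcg
Elavl4, chr4:110287478-110287777, minus strand: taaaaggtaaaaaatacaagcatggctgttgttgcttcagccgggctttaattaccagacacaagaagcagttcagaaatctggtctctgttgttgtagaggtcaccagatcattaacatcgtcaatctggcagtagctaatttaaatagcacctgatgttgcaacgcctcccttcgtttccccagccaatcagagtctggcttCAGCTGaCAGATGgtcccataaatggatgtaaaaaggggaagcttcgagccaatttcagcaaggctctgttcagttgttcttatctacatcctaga
Slc17a6, chr7:51624387-51624686, plus strand: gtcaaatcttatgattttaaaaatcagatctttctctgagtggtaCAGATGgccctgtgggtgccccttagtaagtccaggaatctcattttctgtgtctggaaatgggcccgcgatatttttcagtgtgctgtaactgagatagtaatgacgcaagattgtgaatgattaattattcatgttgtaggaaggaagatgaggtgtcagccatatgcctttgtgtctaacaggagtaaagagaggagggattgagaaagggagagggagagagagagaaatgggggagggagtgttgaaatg
Ina, chr19:47014431-47014730, plus strand: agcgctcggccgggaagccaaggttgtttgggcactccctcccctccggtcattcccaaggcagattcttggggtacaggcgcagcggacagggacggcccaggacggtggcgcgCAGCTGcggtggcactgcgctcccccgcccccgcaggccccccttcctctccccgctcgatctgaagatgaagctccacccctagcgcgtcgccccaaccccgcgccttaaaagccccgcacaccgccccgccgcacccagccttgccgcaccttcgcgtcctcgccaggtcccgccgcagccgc
In Elavl4, CAGCTG and CAGATG begin 46 and 39 bases before the start, separated by a single base, and in Elavl3 a CAGCTG begins 43 bases before it. The CAGATG of Slc17a6 lies farther up, 205 bases before the start, and the CAGCTG of Ina 135 bases before it.

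CAGCTG was present in 25.5% of the 51 member windows against 16.3% of all 32851 windows, and CAGATG in 31.4% against 17.2%. By gene, 14 of the 24 members (58.3%) held either E-box in some window, against 33.4% of 27025 genes, but members had 2.12 windows each against 1.22. Windows of one gene can overlap. Of the members with a window, 9 of 14 that fell with YAP held an E-box and 5 of 10 not called did, with no test made. The core of the TEAD site, GGAATG, was present in 13.7% of member windows, against 14.7% of all and 13.2% of windows of the measured genes. By gene, 7 of the 24 members (29.2%) held GGAATG against 16.6% of all, with the same difference in windows per gene. The RE1 motifs were searched as well. The RE1 core of REST, CAGCACCNNGGA, was in none of the 51 windows and in 0.186% of all. Its left part, CAGCACC, was in 7.84% of member windows against 7.14%, and by gene in 16.7% of the 24 members against 8.14%. Syn1, shown for this motif, held it at 230 and 176 bases before the start (capitals).
Syn1, chrX:20920869-20921168, minus strand: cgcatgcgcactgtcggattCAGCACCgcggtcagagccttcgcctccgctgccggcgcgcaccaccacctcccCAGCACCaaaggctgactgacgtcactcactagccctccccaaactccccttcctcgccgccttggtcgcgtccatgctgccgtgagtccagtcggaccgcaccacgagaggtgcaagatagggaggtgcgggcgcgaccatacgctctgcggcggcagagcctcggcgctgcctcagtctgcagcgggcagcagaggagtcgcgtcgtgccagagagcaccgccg
These matches describe letters in a short window and do not show binding.

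Other neuronal genes of the same kinds were taken from further lists. Of 69 other neuronal genes measured, 13 (18.8%) fell with YAP and none rose, against 3.64% and 2.67% of all genes. At an unadjusted p under 0.05 limma gave 32 lower and 1 higher, against 11% and 8.65% of all genes. The median log2 change of the 69 was -0.21. By kind, 4 of 16 cytoskeletal genes fell, 3 of 24 synaptic, 3 of 10 secretory, 2 of 10 RNA-binding and 1 of 9 adhesion genes. Kif21b, a neuronal kinesin, fell by 0.86 (SE 0.16, limma adjusted p = 0.00757) and Map1a, a microtubule-associated protein, by 0.66 (SE 0.18, limma adjusted p = 0.0476). The vesicle GTPase gene Rab3c fell by 1.03 (SE 0.25, limma adjusted p = 0.0306) and the synapsin Syn3 by 0.47 (SE 0.10, limma adjusted p = 0.0134). Among granule genes, Pcsk1n, a proconvertase inhibitor precursor, fell by 0.99 (SE 0.20, limma adjusted p = 0.0125) and Resp18 by 0.99 (SE 0.26, limma adjusted p = 0.0429). Srrm4, a splicing factor of neuronal microexons, fell by 0.93 (SE 0.18, limma adjusted p = 0.00939), Khdrbs2, another splicing regulator, by 0.50 (SE 0.13, limma adjusted p = 0.0479), and the adhesion gene Nfasc by 0.61 (SE 0.14, limma adjusted p = 0.0222).

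Relatives of the members, listed as broadly expressed, served as a comparison. Vim and Nes among them are progenitor genes and are counted again in the progenitor list below. Of 17 measured, none fell with YAP and 2 rose, Tubb6, a non-neuronal beta-tubulin, by 0.81 (SE 0.12, limma adjusted p = 0.00263) and Vim, an intermediate filament of progenitors and mesenchyme, by 0.27 (SE 0.07, limma adjusted p = 0.0467). Their median log2 change was 0.03, and limma gave 3 lower and 4 higher at an unadjusted p under 0.05. Relatives of members that fell had values of -0.38 for Map4 (limma adjusted p = 0.147), -0.22 for Rtn3 (0.13), -0.08 for Tubb5 (0.607), -0.19 for Stmn1 (0.136) and 0.17 for Elavl1 (0.205), none of them called.

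**Figure D4:**
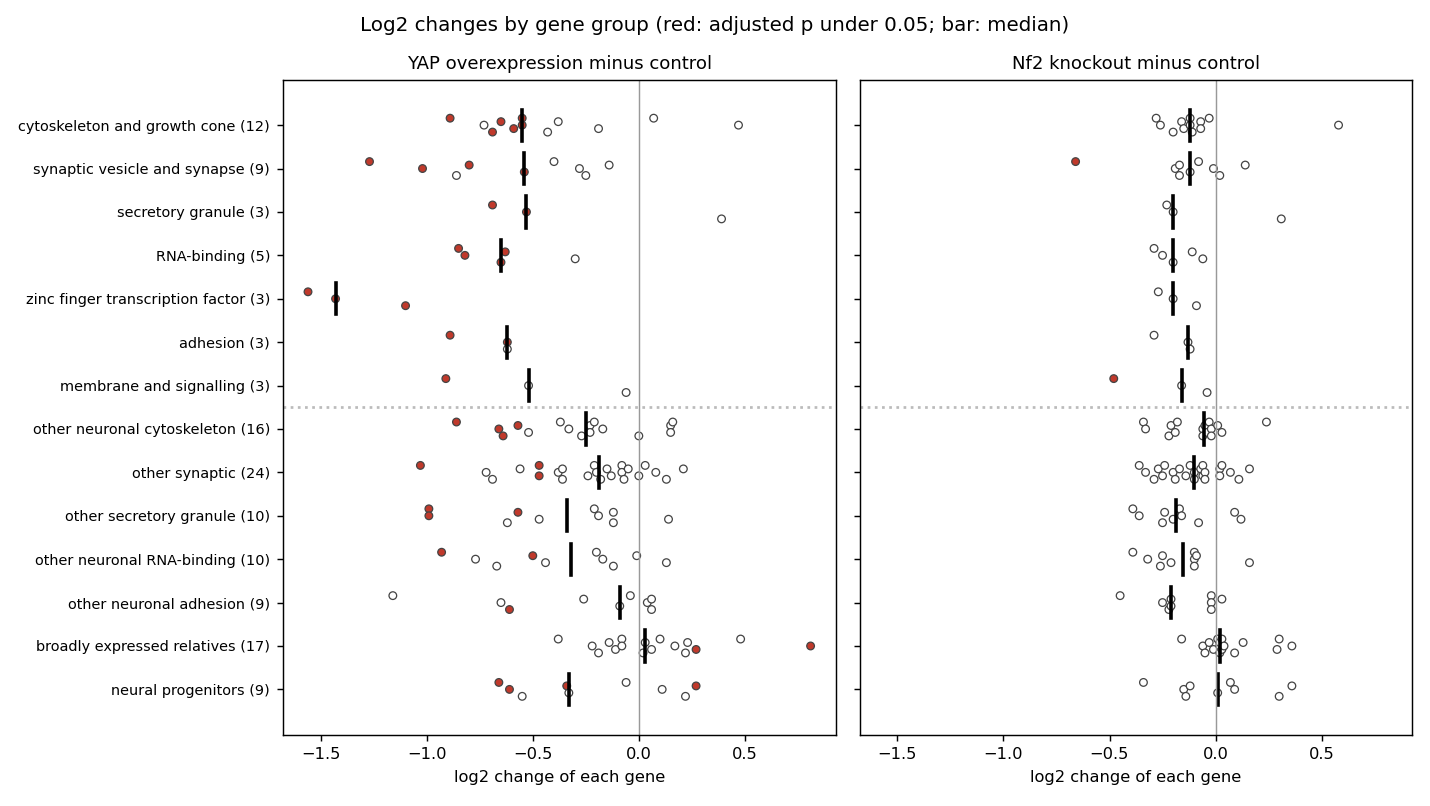
Log2 change of each gene by functional group, members above the dotted line and other lists below it, with the number of genes in parentheses, the vertical bar at the median and red for an adjusted p under 0.05. With YAP the zinc finger factors lie lowest (median -1.43) and the broadly expressed relatives lie about 0 (median 0.03). With the Nf2 knockout only Nptx2 and Nkain2 are red.

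Markers of other cells in the tissue were read beside these results. Sox2 and Pax6, which mark neural progenitors, had control means of 11.62 and 10.78, while Sox1 at 4.30 lay below the array medians. Of 9 neural progenitor genes, Vim rose while Pax6 (-0.34, SE 0.07, limma adjusted p = 0.013), Fabp7 (-0.66, SE 0.17, limma adjusted p = 0.0359) and Sox9 (-0.61, SE 0.13, limma adjusted p = 0.0174) fell. The list's median log2 change was -0.33, and limma gave 5 of the 9 lower and 1 higher at an unadjusted p under 0.05. Its mean log2 level was 9.32, 9.26 and 9.35 in controls and 8.94, 9.23 and 9.10 with YAP, without overlap, while its summed level, most of which is Vim, spanned 14.76 to 14.85 and 14.68 to 14.94. None of 4 erythroid, 5 endothelial, 5 mesenchymal or 4 microglial markers was called with YAP by limma (2, 0, 2 and 0 of them had an unadjusted p under 0.05). The summed level of the erythroid markers spanned 15.90 to 15.94 in controls and 15.72 to 15.79 with YAP, and that of the mesenchymal markers 12.80 to 13.27 and 12.80 to 12.92.

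Peripheral neurons express many of the 38 genes. Of 5 markers of sensory ganglia and 3 of motor neurons none was called (limma; 1 in each list, Isl1, had an unadjusted p under 0.05). Isl1, shared by both lists and also present in forebrain neurons, had a mean of 9.50 in controls and a change of -0.97 (limma adjusted p = 0.223). Summed levels spanned 9.81 to 10.37 in controls and 9.21 to 9.50 with YAP for sensory ganglia, and 9.24 to 10.04 and 8.41 to 8.92 for motor neurons. Isl1 is the largest part of both sums, so they are not separate results. The other markers had changes between -0.20 (Pou4f1) and 0.10 (Avil). Apart from Isl1, the motor neuron markers Slc18a3 and Mnx1 and the ganglion markers Prph, Tlx3 and Avil had control means below the array medians, and Pou4f1 read 7.76. The part of these markers in the result was not tested.

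With the Nf2 knockout, 2 of the 38 genes fell, Nptx2 and Nkain2, and none rose, against 0.0468% of all genes called lower and 0.205% called higher. The median log2 change of the 38 was -0.14, against 0.00 over all genes, and 34 changes were below 0, against 50.6% of all genes. Leaving out 1 array at a time left 30 to 35 below 0, since several changes lay near 0. The arrays did not overlap for 7 genes, 6 lower in the knockout and 1, Stmn4 again, higher, against 12.7% of all genes. The 6 were Nptx2, Nkain2, St18, Elavl4, Dpysl3 and Vamp2, of which St18, Elavl4, Dpysl3 and Vamp2 were also called lower with YAP. At an unadjusted p under 0.05, limma gave 3 genes lower and 1 higher, against 3.09% and 3.15%.

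Nptx2 read 4.85, 4.67 and 4.99 on the control arrays and 4.02, 4.34 and 4.17 on the knockout arrays. It fell by 0.66 (SE 0.11, 1.58-fold, limma adjusted p = 0.0269) with no overlap, in a dim range, since the knockout values lay below the medians of their arrays. Nkain2, a membrane protein that interacts with the sodium pump, read 6.90, 6.96 and 7.17 against 6.47, 6.55 and 6.58. It fell by 0.48 (SE 0.08, 1.39-fold, limma adjusted p = 0.0265), again with separate groups. The second probe set of each gene had the same sign and a smaller change, -0.16 for Nptx2 and -0.35 for Nkain2. Stmn4 read 8.06, 8.47 and 8.15 in controls and 8.76, 8.93 and 8.72 in knockouts, a change of 0.58 (SE 0.15, limma adjusted p = 0.315) that was not called.

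The 5 genes with the largest falls under YAP, St18, Myt1l, Syt4, Myt1 and Slc17a6, were not called with the knockout. St18 read 8.00, 8.04 and 7.97 in controls and 7.79, 7.61 and 7.81 in knockouts, a change of -0.27 (SE 0.14, limma adjusted p = 0.872). Slc17a6 read 9.54, 9.54 and 9.50 against 9.54, 9.49 and 9.51, a change of -0.01 (SE 0.15, limma adjusted p = 0.994), and its groups overlapped fully. Myt1l had a change of -0.20 (limma adjusted p = 0.979), Syt4 of 0.14 (limma adjusted p = 0.984) and Myt1 of -0.09 (limma adjusted p = 0.98). Tubb3, at -0.07 (limma adjusted p = 0.987), and Elavl4, at -0.11 (limma adjusted p = 0.922), were not called either. For St18 and Elavl4, though not called, every knockout array lay below every control. By group, the median changes were -0.12 for the cytoskeleton and growth cone, -0.12 for the synaptic genes, -0.20 for the secretory genes, -0.20 for the RNA-binding genes, -0.20 for the zinc finger factors, -0.13 for adhesion and -0.16 for membrane and signalling.

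The labels do not say what equal array numbers mark. In the Nf2 experiment, arrays of equal number deviated alike from their group means over all genes (correlations of 0.271, 0.212 and 0.207). Each knockout array was therefore also set against the control array of equal number, a pairing chosen from these same values. The mean change over the 38 genes was -0.12, -0.14 and -0.14 in pairs 1 to 3, against 0.00, 0.01 and -0.02 over all genes. In 25 of the 38 genes (65.8%) the knockout array was the lower in every pair, against 15.8% of all genes, and in 3 it was the higher. Pair differences were -0.83, -0.33 and -0.82 for Nptx2, -0.43, -0.41 and -0.59 for Nkain2 and 0.70, 0.46 and 0.57 for Stmn4. With the replicate number as a block, limma called none of the 38 genes, although 4 (10.5%) passed an unadjusted threshold of 0.05, against 6.49% of all genes. Adjusted p-values under the block were 0.144 for Nptx2, 0.084 for Nkain2 and 0.0717 for Stmn4. Leaving out 1 Nf2 array at a time, without the block, left 0 or 1 of the 38 called.

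No other neuronal gene of the 69 was called with the knockout by limma (8 lower and 1 higher at an unadjusted p under 0.05). Nor was any of the 17 relatives (3 higher), and the medians were -0.10 and 0.02. Over all genes 3.09% were lower and 3.15% higher at that threshold. No marker of progenitors or of other cells was called either. At an unadjusted p under 0.05 limma gave 2 of 9 progenitor, 3 of 4 erythroid, 2 of 5 endothelial, 1 of 5 mesenchymal and 1 of 4 microglial markers. The 2 progenitor genes, Nes and Vim, are also among the 3 relatives. The summed erythroid level was 14.22 to 14.25 in controls and 13.95 to 14.10 in knockouts. The progenitor markers had a median change of 0.01, and their mean log2 level overlapped, at 8.48, 8.43 and 8.43 in controls and 8.47, 8.50 and 8.40 in knockouts. Their summed level, of which Vim is the largest part, was 13.77 to 13.79 and 13.84 to 13.93. Their part in the shift of the 38 genes was not tested.

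The difference of the effects, YAP minus Nf2, was itself tested. The experiments share no arrays but differ in tissue, age and manipulation at once, which cannot be told apart. Of the 38 genes, 3 had an effect called lower with YAP than with the knockout, St18 (-1.30, SE 0.20, limma adjusted p = 0.0199), Elavl4 (-0.71, SE 0.11, limma adjusted p = 0.0266) and Myt1 (-1.02, SE 0.18, limma adjusted p = 0.0442), and none higher, against 0.111% and 0.17% of all genes. The median difference over the 38 was -0.47, and 34 were below 0, against 50.9% of all genes. At an unadjusted p under 0.05 limma gave 18 genes lower and 2 higher, against 5.66% and 4.42% of all genes. Next to the called genes were Elavl2 (-0.57, limma adjusted p = 0.0752), Slc17a6 (-1.01, limma adjusted p = 0.096) and Syt4 (-1.40, limma adjusted p = 0.113), which were not called. Leaving out 1 of the 12 arrays at a time gave 0 to 9 calls, with 9 only without YAP overexpression array 2, and the replicate block gave none (limma; 15 at an unadjusted p under 0.05).

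Of the 38 genes, Stmn4 and Scg2 had values above 0 in both experiments and neither was called in either.

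**Figure D5:**
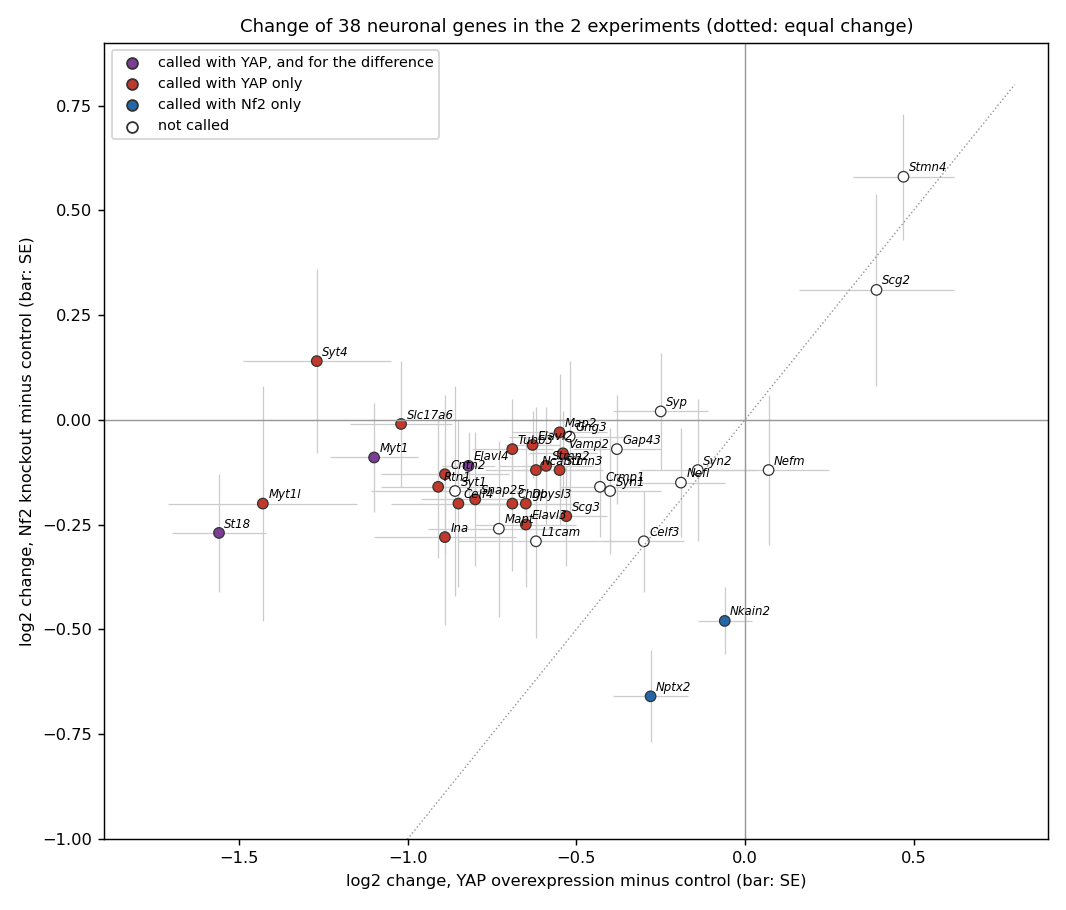
Log2 change with YAP overexpression (x axis) against that with the Nf2 knockout (y axis), 1 point per gene, with bars for standard errors and a dotted line where both are equal. Most points lie at the lower left and to the left of the dotted line, Nptx2 and Nkain2 lie to its right, and Stmn4 is at the upper right (0.47 and 0.58).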

How the data were processed

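RNA from 12 samples was hybridised singly to Affymetrix arrays, from 100 ng of total RNA per the labels' protocols. The authors deposited log2 intensities per probe set. RMA, Expression Console 1.1 and Partek 6.5 are listed, per the submitters' processing notes, with no role or order. Of 45037 probe sets, 28898 had a single gene symbol, 28689 of them matched to a current symbol by Entrez ID, which gave 17097 genes. The number of arrays, 3 a group, limits the precision of every value, and an exact permutation test of 3 against 3 cannot give a p below 0.1, so none was used.

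The linear model had a mean for each group and used every array (limma 3.58.1, R 4.3.3), with 8 residual and 4.096 prior degrees of freedom and two-sided p-values. The script was tested on simulated data. Arrays of equal number were taken as pairs in the Nf2 experiment, where their residual correlations were 0.271, 0.212 and 0.207, and not in the YAP experiment (0.0971, -0.195 and -0.204). The labels do not state a pairing, so it was read from these same values. The members and lists were chosen with earlier results of these data known. Array values are given for called members with the 3 largest changes of each functional group and for members called higher. Of each further list, the 2 called genes with the largest change are named. Values by array for other members, Elavl2, Stmn4, Nefm, Mapt and Scg2 among them, were chosen after they were seen.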

Additional observations from a re-analysis of the deposited data

How the results depend on the processing

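With 1 array left out at a time, limma called 11 to 27 of the 38 genes lower with YAP and 0 to 1 higher, 529 to 1241 of all genes, 0 to 1 of the 38 and 20 to 32 of all genes with the Nf2 knockout, and 0 to 9 of the 38 for the difference of the effects. With the replicate number as a block the counts were 13 lower and 1 higher (Stmn4) with YAP and 689 of all genes, 0 with Nf2 (4 at an unadjusted p under 0.05) and 21 of all genes, and 0 for the difference (15 at an unadjusted p under 0.05). With only the 6 arrays of an experiment, 6 of the 38 and 361 of all genes were called with YAP, and 0 (8 at an unadjusted p under 0.05) and 25 with Nf2. Without both YAP arrays numbered 3, chosen after the data were seen, the counts were 6 and 384 with YAP, the median -0.40, and 1 for the difference. With Nf2, 0 of the 38 were called with the mean of a gene's probe sets (4 at an unadjusted p under 0.05), 0 without genes under the median level (2 at an unadjusted p under 0.05, 32 tested), 1 with array medians subtracted and 1 with quantile normalization, while array weights gave 67 of all genes. In these fits fewer arrays or genes were tested, or the probe set differed, and otherwise the cause was not tested. Called genes and the medians over the 38 kept their direction. Uncalled genes near 0 did not always, up to 4 in a setting (Gap43, Nefm, Cntn2 and Gng3 with Nf2 without control array 2). Subtracting array medians moved the share of higher calls among all genes with YAP from 42.3% to 52.8%, and left 21 of the 38 called, all lower.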

Other observations

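The 38 genes had 79 probe sets in all, 16 genes having 1. Of the 41 probe sets not used, 36 had a log2 change below 0 with YAP overexpression, between -1.33 and 0.19 over the 41. At an unadjusted p under 0.05 limma gave 24 of the 41 lower and none higher. Over all genes, with 1 probe set each, 51.2% were below 0, 11% were lower and 8.65% higher at that threshold. The further probe sets read the same genes on the same arrays, so they are not separate results. In 18 of the 22 genes with several probe sets every one was below 0 with YAP, a share that was not counted over all genes. The exceptions were Nptx2, Myt1l, Ncam1 and L1cam. With the Nf2 knockout, 33 of the 41 were below 0, against 50.6% of all genes.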
